A study of Arabidopsis thaliana with 6 samples.

Results

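Small RNA (sRNA) was counted at 8 genes for pentatricopeptide repeat (PPR) proteins that lie close together on the lower arm of chromosome 1 of *Arabidopsis thaliana*: AT1G62590, AT1G62910, AT1G62930 (RPF3), AT1G63080, AT1G63130 (RPF6), AT1G63150, AT1G63330 and AT1G63400. They were chosen by name as members of the clade that resembles fertility restorers and as known sources of secondary siRNA, and the rule used no sRNA value. A deposited sRNA cluster, that is a genomic interval with aligned sRNA reads, was assigned to a gene on an overlap of 1 base or more. This gave 10 of the 17131 clusters, 1 at each of 6 genes and 2 each at AT1G62930 and AT1G63130.

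The libraries came from single Col-0 plants collected at bolting, 2 from generation 1 of the *msh1* memory lineage and 4 from wild type. The sampling scheme of the study names rosette leaves as the tissue, whereas its methods name whole plants. *MSH1* encodes a DNA-binding protein of plastids and mitochondria. Memory plants are progeny of an *MSH1* RNAi line that no longer carry the transgene but keep an altered growth habit, and the wild type controls descend from transformation events that were negative for the construct and were grown alongside. Per the methods of the study, memory plants of this generation were full sibs from 1 T1 parent, and no sib with normal growth was sequenced for sRNA, so an effect of that family and an effect of memory cannot be told apart.

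PPR proteins bind organellar RNA, and the clade that resembles fertility restorers acts on mitochondrial transcripts. In Arabidopsis, transcripts of this clade are targets of miR161 and miR400 and of trans-acting siRNAs from the TAS1 and TAS2 transcripts, which miR173 cuts. After such cleavage, RDR6 copies an RNA into a double strand and DCL4 dices it into secondary siRNAs in steps from the cut, which is called phasing, and these can act on further members of the family.

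The mature sequences of these miRNAs are shown because their matches set the frame for the cluster positions below. They were read from the RefSeq TAIR10.1 genome at chr1:17825731-17825751 and chr1:17825722-17825742 (miR161.1 and miR161.2, plus strand of the same precursor), chr1:11785947-11785967 (miR400, plus strand) and chr3:8236161-8236182 (miR173, plus strand). Capitals mark the seed, bases 2 to 8. The 4 seeds differ from each other.
miR161.1: uGAAAGUGacuacaucggggu
miR161.2: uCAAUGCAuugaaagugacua
miR400: uAUGAGAGuauuauaagucac
miR173: uUCGCUUGcagagagaaaucac

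From the miR173 match in each TAS transcript, 12 consecutive 21-base registers of the complementary strand were written out and set against the PPR genes. The study screened its sRNA by length for differences, and whether the deposited counts were limited to a length class is not given in the sources used here. Registers are computed from sequence, and whether such a siRNA was present was not measured, because the tables hold no read sequences. Among the 8 genes, the registers with the most matches were register 6 of TAS2 (chr2:16539877-16539897, plus strand) and register 9 of TAS1A (chr2:11721904-11721924, plus strand).
TAS2 register 6: auaucccauuucuaccaucug
TAS1A register 9: ccaaugcuuuuucuaguuucg

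A match was an ungapped complement in the annotated gene span with a score of at most 4, where a mismatch cost 1 and a G:U pair cost 0.5. miR161.1, miR161.2 and miR400 each matched 8 of 8 genes, with scores of 2.5 to 3.5, 1.0 to 2.0 and 1.5 to 3.5. All of these matches lay in coding sequence and inside a cluster. Outside the 8 genes, miR161.2 matched 5 of the 8 other PPR genes within 100 kb, 22 of the 476 annotated PPR genes elsewhere (4.62%) and 67 of 26952 protein-coding genes outside the family (0.249%). For miR161.1 the same counts were 6 of 8, 28 of 476 (5.88%) and 28 of 26952 (0.104%), and for miR400 they were 5 of 8, 51 of 476 (10.7%) and 74 of 26952 (0.275%). A match describes the letters of the gene and not a cleavage site.

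The miR161.2 matches are shown because this miRNA paired best overall and its match is the zero point of the map of clusters. Letters are those of the transcript sense in TAIR10.1, and capitals mark positions without a Watson-Crick pair.
AT1G62590 and AT1G63330: tagtcacGttcaatgcattga
AT1G62910, AT1G62930 and AT1G63130: tagtcactttcaGCgcattga
AT1G63080: tagtcactttcaaCTcattga
AT1G63150: tTgtTactttcaatgcattga
AT1G63400: tagtcactttcaaCgcattga

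These matches lie at chr1:23178190-23178210 (AT1G62590) and chr1:23389780-23389800 (AT1G63080) on the minus strand. On the plus strand they lie at chr1:23300042-23300062 (AT1G62910), chr1:23307507-23307527 (AT1G62930), chr1:23413830-23413850 (AT1G63130), chr1:23420381-23420401 (AT1G63150), chr1:23490603-23490623 (AT1G63330) and chr1:23508308-23508328 (AT1G63400). The 8 sites took 5 forms. AT1G62590 and AT1G63330 carried the same letters, with 1 mismatch and no G:U pair, whereas AT1G63080 had 2 mismatches.

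The TAS2 register 6 siRNA matched 7 of 8 genes, and AT1G62930 was the exception with a best score of 5.5. The sites are shown because their scores differed most between the genes.
AT1G63080 and AT1G63130: cagatggtGgaaatgggatat
AT1G62590, AT1G63330 and AT1G63400: caAatggtGgaaatgggGtat
AT1G62910 and AT1G63150: caAatggtCgaaatgggatat
AT1G62930 (over the limit): caAatgTtCgTaatggAGtat

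AT1G63080 (chr1:23390231-23390251, minus strand) and AT1G63130 (chr1:23413379-23413399, plus strand) scored 0.5, with a single G:U pair and no mismatch. The remaining 5 matching genes scored 2.0. Of other PPR genes, 3 of 8 within 100 kb and 10 of 476 elsewhere (2.10%) held a match, against 37 of 26952 other protein-coding genes (0.137%). TAS1A register 9 matched 8 of 8 genes at scores of 2.0 to 4.0. It also matched 5 of the 8 other PPR genes within 100 kb, 15 of 476 elsewhere (3.15%) and 139 of 26952 other protein-coding genes (0.516%). This register was taken for its number of matches among the 8 genes, so its 8 of 8 follows from that choice.

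Positions of the matches were fixed relative to each other. Counted from the first base of the miR161.2 match along the transcript, miR161.1 lay at -9 to 11 and miR400 at 212 to 232 in all 8 genes. TAS2 register 6 lay at -451 to -431 in its 7 genes, and TAS1A register 9 at 462 to 482 in 8 genes. At each gene the 5′ or only cluster began upstream of the miR161.2 match, by 481 to 627 bases, and 30 to 176 bases upstream of the TAS2 match where there was one. No cluster reached back to the start codon, and the coding sequence ran for 136 to 507 bases before the cluster edge. At both genes with 2 clusters, the gap between them lay just after the miR161 matches. The 5′ cluster of AT1G62930 ended at 60 and its 3′ cluster began at 193, and at AT1G63130 these positions were 44 and 202.

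**Figure D1:**
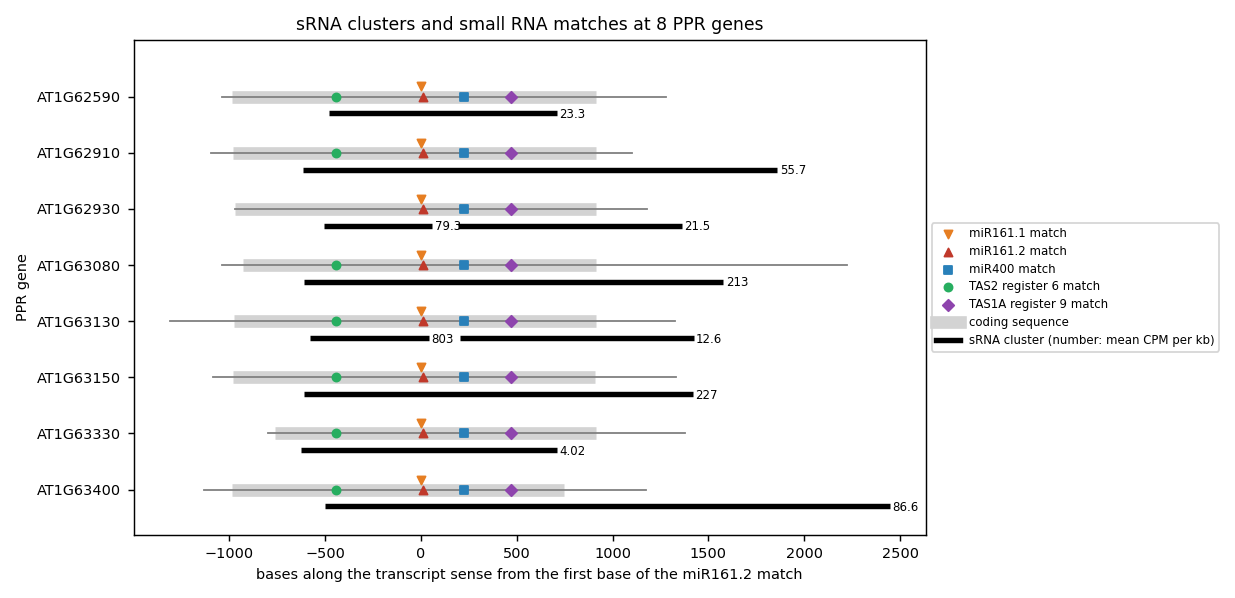
Map of the 8 PPR genes, aligned on the first base of the miR161.2 match, with bases along the transcript on the x axis, coding sequence in grey, sRNA clusters in black with their mean level over 6 libraries in CPM per kb, and matches as symbols. Clusters began 481 to 627 bases before the miR161.2 match or, for the 3′ clusters of AT1G62930 and AT1G63130, at 193 and 202 after it.

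The 8 genes lie within 332.6 kb (chr1:23176930-23509484), 6 on the plus and 2 on the minus strand, with coding sequences of 1680 to 1905 bases. Over 28 pairs, coding sequences were 82.2% to 99.0% identical, with a median of 86.4%, and AT1G62590 and AT1G63330 were the closest pair. Reads shared by such copies cannot be placed by sequence alone. Of the 21-base words in the gene spans, between 32.9% (AT1G63080) and 96.4% (AT1G63330) occurred at more than 1 site of the genome, and counts at AT1G62590 and AT1G63330 are best read together. The antisense genes AT1G08537 and AT1G08597 overlap the clusters of AT1G62590 and the 5′ cluster of AT1G63130, and the clusters carry no strand.

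The libraries held 12099251 and 7966799 counts in memory plants 1 and 2 and 10151442 to 18134284 counts in wild type. Levels are given as CPM, counts per 1000000 of the library size after TMM scaling, whose factors were 1.06 and 0.770 in memory and 0.820, 1.22, 1.13 and 1.08 in wild type. Memory plant 2 thus had the fewest counts and the smallest factor. In tissue of mixed cell types, fewer cells of a type and less sRNA per cell cannot be told apart. The test was the edgeR quasi-likelihood test over all 15659 clusters that passed its filter, and 1 of them passed a Benjamini-Hochberg adjusted p of 0.05. No cluster lay at *MSH1* itself.

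Together the 8 genes held 134655 counts. Their summed level was 1198 and 2200 CPM in memory, against 1629, 2370, 2318 and 1930 CPM in wild type. The memory plants differed, plant 1 lying below all wild type libraries and plant 2 within their range. The mean was 1699 ± 708 CPM (SD, n = 2) in memory and 2062 ± 349 CPM (SD, n = 4) in wild type, a ratio of 0.824, which is within the spread between plants. As a share of the unscaled library total, memory plants averaged 0.148% ± 0.0299 (SD, n = 2) and wild type plants 0.224% ± 0.0690 (SD, n = 4), a ratio of 0.663, and the groups overlapped on that scale too.

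AT1G63080, AT1G63130 and AT1G63150 carried 75.4% of these counts. Per kb of cluster, AT1G63130 averaged 279 ± 69.1 CPM per kb over the 6 libraries (SD), AT1G63150 227 ± 50.9 and AT1G63080 213 ± 54.0. Each pair of these 3 levels differed by less than the larger SD of the pair. AT1G63130 was nevertheless above AT1G63150 and AT1G63080 in 6 of 6 libraries, and AT1G63150 was above AT1G63080 in 5 of 6. AT1G63400 (86.6 ± 38.7 CPM per kb) was lower than all 3 in 6 of 6 libraries. It differed from AT1G62910 (55.7 ± 34.6), and AT1G62910 from AT1G62930 (40.3 ± 12.1), by less than the larger SD, and each pair kept its order in 4 of 6 libraries. AT1G62590 (23.3 ± 9.61 CPM per kb) and AT1G63330 (4.02 ± 2.54) were lowest, each below AT1G62930 in 6 of 6 libraries, and AT1G63330 below AT1G62590 in 6 of 6. The 2 genes with the best TAS2 match were thus among the top 3 per kb, but AT1G63150, at a score of 2.0, stood between them.

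Among the 8726 protein-coding genes with a cluster, ranked by mean CPM per kb of cluster, AT1G63130, AT1G63150 and AT1G63080 took ranks 114, 140 and 151. AT1G63400 was at rank 388, AT1G62910 at 620, AT1G62930 at 879, AT1G62590 at 1405 and AT1G63330 at 3636. Of the 484 other annotated PPR genes, 120 had a cluster (24.8%), with a median of 2.00 CPM per kb, and 11 exceeded 50 CPM per kb. Of the 8 genes, 5 exceeded 50 CPM per kb, and their median was 71.1 CPM per kb. AT3G46870 was the single PPR gene above them all, at 11416 CPM per kb. Among the 484, the 8 that lie within 100 kb each had a cluster, with a median of 9.98 CPM per kb, and 2 of them exceeded 50 CPM per kb. Of these neighbours, AT1G62914 stood at 108 CPM per kb over its clusters, above AT1G63400. Its Cluster_3386, which no member gene shares, averaged 189 CPM per kb, and the cluster it shares with AT1G62910 averaged 55.7. A level of this order was thus not limited to the 8 genes.

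When memory was set against wild type, 0 of the 10 PPR clusters passed, where 0.00639% of all tested clusters did. The fold change was below 0 at 7 clusters and above 0 at 3, and 52.3% of all clusters were below 0. Their median log2 fold change was -0.35, against -0.03 over all clusters. Adjusted p-values of the edgeR test ran from 0.41 to 0.941 after Benjamini-Hochberg adjustment. At an unadjusted p below 0.05 the edgeR test held 1 of the 10 clusters, where 10.5% of all clusters were below that level. DESeq2 also passed 0 and held 2 at an unadjusted p below 0.05, and the edgeR likelihood ratio test passed 0 and held 1. Both memory values lay below all 4 wild type values at 2 of 10 clusters, which compares with 12.0% of all clusters, and above them at 0 of 10, where the share of all clusters was 10.1%. With unscaled library totals the first of these counts was 4 of 10, against 10.4% of all clusters, and with ribosomal RNA clusters left out of the total it was 3 of 10, against 7.91%. RLE factors kept it at 2 of 10, against 11.4%. Without memory plant 2 the fold change was below 0 at 9 of the 10 clusters, against 54.7% of all clusters, and without memory plant 1 at 6 of the 10, against 55.9%. In the same fits, 5 of the 10 (5.87% of all clusters) and 2 of the 10 (15.9% of all clusters) had an unadjusted p below 0.05, and 0 passed.

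**Figure D2:**
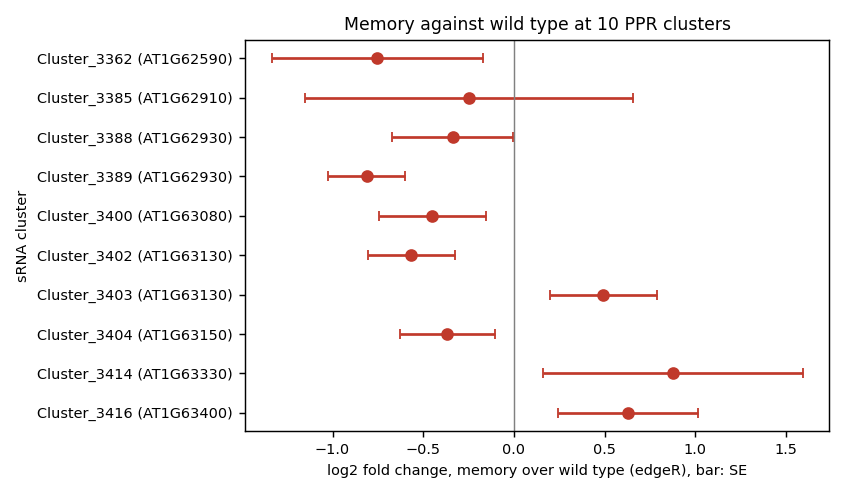
The log2 fold change of each of the 10 clusters, memory over wild type, with its approximate SE, from the edgeR fit over all clusters. Points below 0 were 7 and points above 0 were 3, from -0.81 at the 3′ cluster of AT1G62930 to 0.88 at AT1G63330.

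AT1G62930 encodes RPF3, which is needed for 5′ processing of ccmC transcripts in mitochondria. Its 3′ cluster, Cluster_3389 (chr1:23307700-23308869), held 16.0 and 17.4 CPM in memory, against 27.2, 37.3, 24.1 and 28.7 CPM in wild type. Both memory plants were below every wild type plant and close to each other. The mean was 16.7 ± 1.04 CPM in memory (SD, n = 2) and 29.3 ± 5.66 CPM in wild type (SD, n = 4), with a log2 fold change of -0.81 ± 0.21 (SE). Its unadjusted p was 0.0078 in the edgeR quasi-likelihood fit and its adjusted p was 0.41, so it did not pass.

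That cluster runs 183 bases past the gene and overlaps AT1G62935, and it holds the miR400 and TAS1A matches but not those of miR161. The 5′ cluster of AT1G62930, Cluster_3388 (chr1:23307003-23307567), held 30.9 and 45.5 CPM in memory, against 44.2, 70.8, 32.9 and 44.7 CPM in wild type. Here memory plant 2 lay within the wild type range and memory plant 1 just under it. The log2 fold change was -0.34 ± 0.33 (SE; edgeR adjusted p = 0.731). With both clusters summed, AT1G62930 had 46.8 and 62.9 CPM in memory and 57.0 to 108 CPM in wild type, which overlapped (log2 fold change -0.50, edgeR adjusted p = 0.557).

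AT1G63130, known as RPF6, belongs to the same group of RNA processing factors. Its 5′ cluster, Cluster_3402 (chr1:23413252-23413874), lies wholly in coding sequence and had the highest level per kb of the 10 clusters, 803 CPM per kb. It held 326 and 431 CPM in memory, against 446, 679, 607 and 511 CPM in wild type. Both memory plants were below every wild type plant, although memory plant 2 was only just below wild type plant 1, and the groups overlapped when ribosomal RNA clusters were left out of the total. The mean was 379 ± 74.4 CPM in memory (SD, n = 2) and 561 ± 103 CPM in wild type (SD, n = 4), and the log2 fold change was -0.57 ± 0.24 (SE; edgeR adjusted p = 0.484).

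The 3′ cluster of AT1G63130, Cluster_3403 (chr1:23414032-23415254), was far lower, at 12.6 CPM per kb. It held 12.8 and 25.4 CPM in memory, against 11.8, 14.6, 15.4 and 12.4 CPM in wild type. Memory plant 1 was among the wild type values and memory plant 2 was above all of them. Its log2 fold change was 0.49 ± 0.29 (SE; edgeR adjusted p = 0.57), and it was -0.087 when memory plant 2 was left out.

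The 5′ cluster therefore took most of the counts of AT1G63130, 96.2% and 94.4% in memory, against 97.4%, 97.9%, 97.5% and 97.6% in wild type. The widest of the 95% Wilson intervals ran from 93.5% to 95.2%, in memory plant 2. At AT1G62930 the 5′ cluster took 65.9% and 72.3% in memory, against 61.9%, 65.5%, 57.8% and 60.8% in wild type. The groups did not overlap at either gene, but they were ordered in opposite ways, with the 5′ share lower in memory at AT1G63130 and higher in memory at AT1G62930. For both shares the exact two-sided permutation test gave p = 0.133, the smallest value that 15 splits of 2 against 4 libraries allow. At AT1G62930, moreover, the Wilson intervals of memory plant 1 (62.0% to 69.6%) and wild type plant 2 (63.1% to 67.9%) overlapped.

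AT1G63080 was the third of the genes with levels above 200 CPM per kb. Cluster_3400 (chr1:23388222-23390413) held 271 and 480 CPM in memory, against 384, 572, 558 and 539 CPM in wild type. Memory plant 1 was below all wild type plants and memory plant 2 was not. The mean was 376 ± 148 CPM in memory (SD, n = 2) and 513 ± 87.4 CPM in wild type (SD, n = 4), with a log2 fold change of -0.45 ± 0.29 (SE; edgeR adjusted p = 0.593).

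AT1G63150 behaved similarly. Cluster_3404 (chr1:23419768-23421801) held 296 and 477 CPM in memory, against 403, 480, 603 and 510 CPM in wild type, and again only memory plant 1 was below the wild type range. Its log2 fold change was -0.37 ± 0.26 (SE; edgeR adjusted p = 0.621). It had the smallest share of repeated 21-base words of the 10 clusters, 30.1%.

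AT1G63400 was one of the 2 genes with a mean above wild type. Cluster_3416 (chr1:23507807-23510754) held 193 and 475 CPM in memory, against 149, 260, 235 and 219 CPM in wild type. Memory plant 2 was the highest of the 6 libraries and memory plant 1 lay within the wild type range. The mean was 334 ± 199 CPM in memory (SD, n = 2) and 216 ± 47.7 CPM in wild type (SD, n = 4), with a log2 fold change of 0.63 ± 0.38 (SE; edgeR adjusted p = 0.574). Without memory plant 2 the log2 fold change was -0.16.

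This cluster runs 1270 bases past the gene into AT1G63410, and no table divides its counts between the genes. Of the counts of all 8 genes, it took 16.2% and 21.6% in memory, against 9.15%, 11.0%, 10.2% and 11.4% in wild type, so the groups did not overlap in this share. This share does not depend on library scaling. It was noticed among 8 such shares after their values were seen, and it was given no test.

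AT1G62910 varied as much within a group as between groups. Cluster_3385 (chr1:23299428-23301902) held 38.2 and 206.8 CPM in memory, against 131.7, 213.2, 206.7 and 30.1 CPM in wild type. One plant of each group, memory plant 1 and wild type plant 4, was far below the others. The log2 fold change was -0.25 ± 0.90 (SE; edgeR adjusted p = 0.941), and it was 0.52 without memory plant 1. The cluster continues for 761 bases beyond the gene and reaches the next PPR gene, AT1G62914.

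AT1G62590 and AT1G63330, the pair with 99.0% identical coding sequence, are the least certain. Cluster_3362 at AT1G62590 (chr1:23177501-23178691) held 6.62 and 31.8 CPM in memory, against 29.9, 41.0, 30.8 and 26.5 CPM in wild type. Cluster_3414 at AT1G63330 (chr1:23489976-23491313) held 6.31 and 9.13 CPM in memory, against 2.49, 1.44, 3.56 and 9.32 CPM in wild type. The groups overlapped at both genes, and in each of them 1 plant stood apart, memory plant 1 at AT1G62590 and wild type plant 4 at AT1G63330.

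Their log2 fold changes had opposite signs, -0.75 ± 0.58 and 0.88 ± 0.72 (SE), with edgeR adjusted p-values of 0.649 and 0.668. The value at AT1G62590 was -2.28 without memory plant 2 and -0.0013 without memory plant 1, and that at AT1G63330 was 1.62 without wild type plant 4. Of the 21-base words in these clusters, 91.3% and 94.2% occurred at more than 1 genome site. Summed over the pair, the level was 12.9 and 40.9 CPM in memory, against 32.4, 42.5, 34.4 and 35.8 CPM in wild type. Within wild type the sum varied less than either gene, with a coefficient of variation of 12.0%, against 19.5% for AT1G62590 and 83.8% for AT1G63330.

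**Figure D3:**
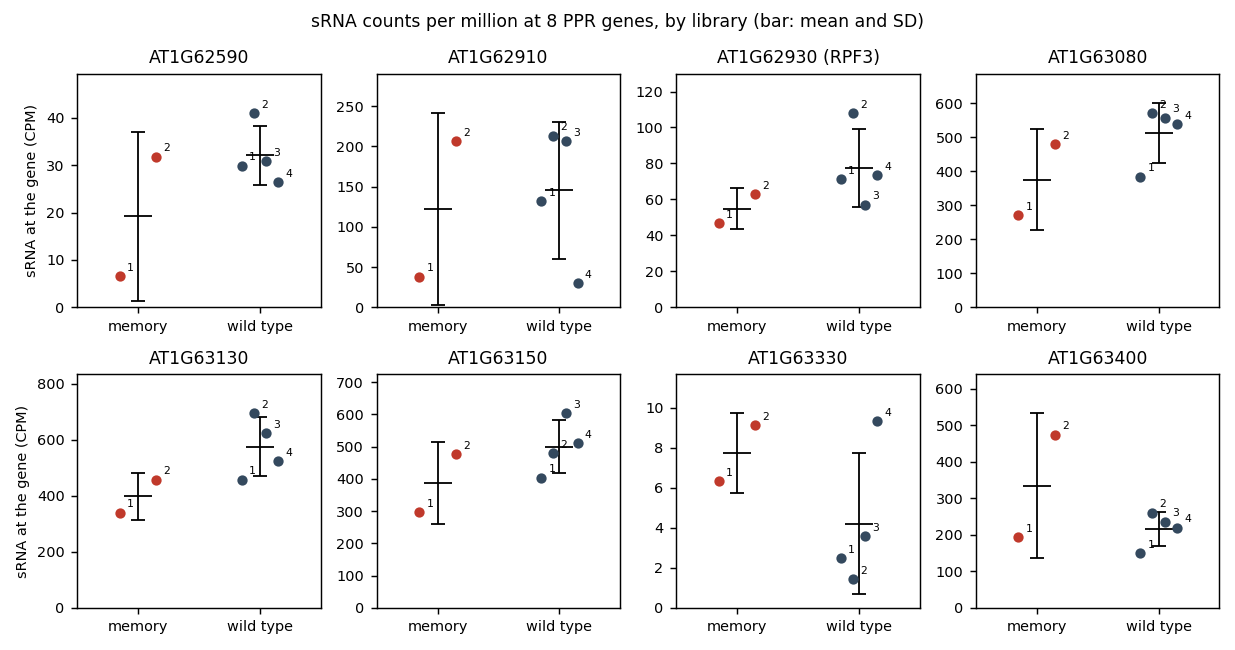
Level of sRNA at each of the 8 PPR genes in CPM (y axis, linear from 0), memory plants on the left and wild type plants on the right, 1 numbered point per plant, with bars for the mean and SD. The groups overlap at all genes except AT1G63130, and memory plant 1 lies below memory plant 2 in every panel (in 6 of 8 genes with unscaled totals).

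Variation among wild type plants differed widely between clusters. The coefficient of variation was 12.8% at the 3′ cluster of AT1G63130 and 17.0% at AT1G63080, but 58.7% at AT1G62910. Over the 6013 clusters with a wild type mean of at least 10 CPM, the median was 14.2% and the central range from the 10th to the 90th percentile was 5.73% to 47.6%. AT1G62910 lay outside that range. AT1G63330 did too, at 83.8%, but its wild type mean of 4.20 CPM was below that limit.

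Levels and repeated sequence were compared over the 10 clusters as a description. The clusters with over 90% repeated words, at AT1G62590 and AT1G63330, were among the low ones, at 23.3 and 4.02 CPM per kb. The 3′ clusters of AT1G62930 and AT1G63130 lay between these levels, at 21.5 and 12.6 CPM per kb, with 46.2% and 49.2% repeated words. The highest cluster, the 5′ cluster of AT1G63130, had 61.5%, the same share as AT1G62910. The clusters share the same libraries and much of their sequence, and how reads with several matching sites were placed was not tested.

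**Figure D4:**
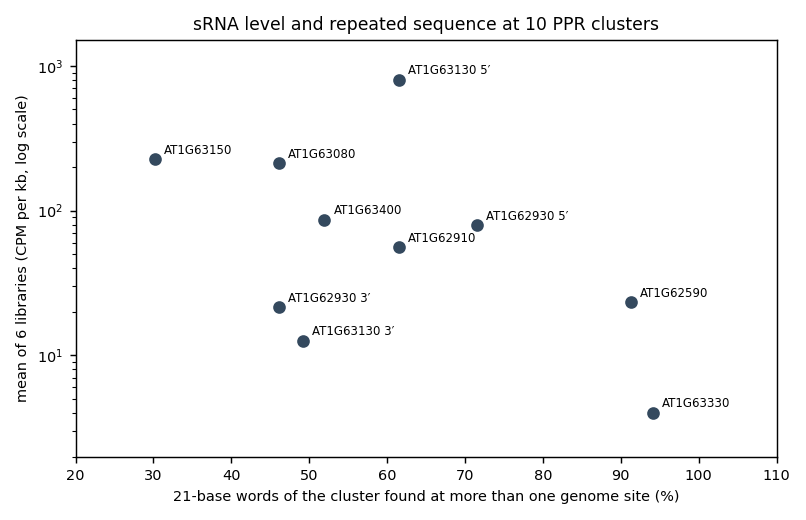
Mean level of each of the 10 clusters over 6 libraries in CPM per kb (y axis, log scale) against the percentage of its 21-base words found at more than 1 genome site (x axis). The 5′ cluster of AT1G63130 is highest at 803 CPM per kb with 61.5% repeated words, and AT1G63330 is lowest at 4.02 CPM per kb with 94.2%.

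The other 8 PPR genes within 100 kb were AT1G62670 (RPF2), AT1G62680, AT1G62720 (NG1), AT1G62914, AT1G63070, AT1G63230, AT1G63320 and AT1G63630. They shared a base with 10 clusters, 1 of which is also the cluster of AT1G62910. Of these, 9 were tested and 0 passed in the edgeR test. That test put 1 of the 9 at an unadjusted p below 0.05, against 10.5% of all clusters. The fold change was below 0 at 7 of the 9, against 52.3% of all clusters. AT1G62914 held 213.6 and 172.9 CPM at Cluster_3386 in memory, against 288, 449, 365 and 313 CPM in wild type. Both memory plants were below every wild type plant, with a log2 fold change of -0.87 ± 0.23 (SE). In the edgeR quasi-likelihood fit this had an unadjusted p of 0.0089 and an adjusted p of 0.413.

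RPF2, needed for 5′ processing of cox3 and nad9 transcripts in mitochondria, held 73.6 and 14.8 CPM in memory, against 69.8, 112, 111 and 164 CPM in wild type. Memory plant 2 was the lowest of the libraries here, while memory plant 1 lay within the wild type range (log2 fold change -1.36 ± 0.66 (SE), edgeR adjusted p = 0.519). Over all 484 other PPR genes, 112 clusters were tested and 0 passed in the edgeR test, with a median log2 fold change of 0.06. In that test 11 of the 112 had an unadjusted p below 0.05, against 10.5% of all clusters.

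Per kb of cluster, the trigger loci MIR161 (1562 CPM per kb), TAS2 (2899), TAS1C (3632) and TAS1A (12271) stood above the 8 genes, while TAS1B (368), MIR173 (278) and MIR400 (57.8) were nearer to them. The clusters were wider than the loci, which covered 173 of 2344 bases at MIR161, 102 of 1156 at MIR400 and 102 of 479 at MIR173. For TAS1A, TAS1B, TAS1C and TAS2 these were 930 of 1715, 839 of 3147, 990 of 1731 and 1034 of 1554. Levels per kb thus include bases outside the loci, and their order depends on cluster width. At MIR161, the cluster of the precursor held 2599 and 3813 CPM in memory, against 2330, 4266, 3432 and 5532 CPM in wild type. The groups overlapped (log2 fold change -0.28 ± 0.41 (SE), edgeR adjusted p = 0.83). The table does not divide these counts between miR161.1, miR161.2 and other reads. MIR400 had 78.0 and 46.8 CPM in memory and 59.9 to 80.1 CPM in wild type, and MIR173 had 104 and 149 CPM in memory and 102 to 162 CPM in wild type.

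TAS2 held 2658 and 9452 CPM in memory, against 3145, 3397, 4926 and 3454 CPM in wild type. Memory plant 1 was the lowest of the libraries and memory plant 2 the highest, so the memory mean of 6055 ± 4804 CPM (SD, n = 2) had an SD wider than the wild type mean of 3731 ± 808 CPM (SD, n = 4). TAS2 did not pass the test (log2 fold change 0.70 ± 0.51 (SE), edgeR adjusted p = 0.629). Among the other trigger loci, memory plant 2 was the higher of the memory plants at MIR161 and MIR173. It was the lower at MIR400, TAS1A, TAS1B and TAS1C. At the PPR genes it was the higher at 8 of 8 in CPM, at 6 of 8 with unscaled totals and at 5 of 8 with ribosomal RNA clusters left out of the total. The share of all clusters with this order was not computed, and the small TMM factor of memory plant 2 raises its CPM. Whether TAS2 levels had a part in the PPR levels was not tested.

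TAS1A held 18903 and 17532 CPM in memory, against 19492 to 25045 CPM in wild type, and TAS1B held 1033 and 881 CPM in memory, against 1181 to 1405 CPM in wild type. Both memory plants were below every wild type plant at these loci, an order that 12.0% of all clusters showed. The log2 fold changes were -0.30 ± 0.36 and -0.40 ± 0.19 (SE), with edgeR adjusted p-values of 0.783 and 0.517. TAS1C had 6161 and 5840 CPM in memory, which overlapped 6146 to 6714 CPM in wild type. In all, 0 of the 7 loci passed in the edgeR test, and none had an unadjusted p below 0.05, against 10.5% of all clusters. The fold change was below 0 at 6 of the 7, against 52.3% of all clusters.

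**Figure D5:**
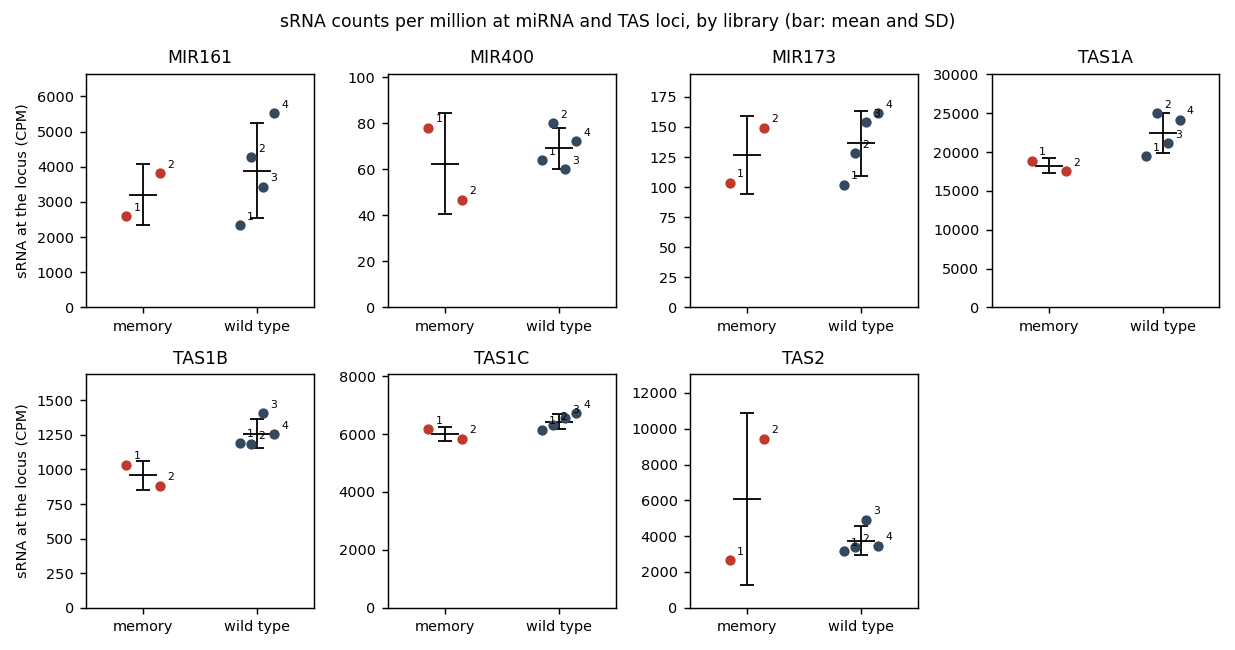
Level of sRNA at the MIR161, MIR400, MIR173, TAS1A, TAS1B, TAS1C and TAS2 loci in CPM (y axis, linear from 0), memory plants on the left and wild type plants on the right, 1 numbered point per plant, with bars for the mean and SD. Memory plant 2 stands at 9452 CPM at TAS2, above the 4 wild type plants at 3145 to 4926 CPM.

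Of 11 genes for enzymes and partners of this pathway, DCL1, which processes miRNA precursors, AGO1, the slicer that miRNAs guide, and DCL4 had clusters. HYL1, SE, HEN1, SGS3, RDR6, SDE5, DRB4 and DCL2 had none. Of their 8 clusters, 6 were tested and 0 passed in the edgeR test, with 0 at an unadjusted p below 0.05, against 10.5% of all clusters. The DCL4 cluster held 72.0 and 66.9 CPM in memory, against 59.7, 88.7, 74.5 and 71.4 CPM in wild type, and the groups overlapped. Of the 1130 bases of this cluster, 244 lie in DCL4, and its counts are not divided between the gene and the bases outside. These are sRNA counts of clusters that overlap the genes and say nothing of their mRNA.

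The clusters elsewhere whose levels followed the sum of the 8 genes most closely were ranked by Pearson's r of log2(CPM + 0.5) over the 6 libraries, among 2637 clusters at protein-coding genes with at least 10 CPM. The highest 5 were Cluster_10801 at AT4G02420 (r = 0.972), Cluster_16374 at AT5G48020 (r = 0.967), Cluster_15453 at CYP79A4P (r = 0.961), Cluster_6321 at AT2G25250 (r = 0.956) and Cluster_11947 at EMB1691 (r = 0.952). With 6 libraries that share depth and composition with every other cluster, these values are a description, and none of the 5 is a PPR gene.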

How the data were processed

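Per the methods of the study, the authors prepared sRNA libraries with the Illumina TruSeq Small RNA kit, aligned each of them to TAIR10 with ShortStack in its align-only mode and merged the alignments with SAMtools. The deposited values are whole-number counts per cluster, without scaling. The study screened 24-nt sRNAs for differential clusters. Whether the deposited counts were limited to that length, how clusters were defined and how reads were counted are not given in the sources used here. The tables hold no read length, strand or sequence, so phasing was not measured.

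Gene models and sequences were those of RefSeq TAIR10.1, and all clusters ended within its chromosomes. Counts were tested in edgeR 4.0.16 (R 4.3.3) by the quasi-likelihood test (TMM, filterByExpr, group alone, Benjamini-Hochberg over 15659 clusters, adjusted p below 0.05), after a check on simulated counts. The SE is approximate, the absolute log2 fold change divided by the square root of F. Shares were compared by an exact permutation test (scipy 1.17.1), with a p of 2 times the smaller one-sided value. Coding sequences were aligned together in mafft 7.526, and identity was read for each pair over positions without a gap in either. DESeq2 1.42.0, other scalings, filters, cluster assignments and left-out libraries were alternatives.

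Named were all clusters at the 8 genes, at the listed triggers and enzymes and at PPR genes within 100 kb, and the 5 clusters most alike over the libraries. The genes and lists were chosen with earlier results of these data known. Replicates were taken as separate plants per the methods of the study, since the labels give only a group and a number. All 15 pairs of libraries differed by more than sampling noise (chi-square of at least 31.3 for each degree of freedom). A count of 3 corresponded to 0.202 to 0.489 CPM. Intervals (95%, Wilson) and this floor cover counting error only, since PCR copies without molecular identifiers are not independent molecules.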

Additional observations from a re-analysis of the deposited data

Results flagged for a closer look

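In 2 clusters at neighbouring PPR genes, 1 wild type plant stood far from the other 3. Cluster_3399 at AT1G63070 held 1.09 and 1.47 CPM in memory, against 13.0 CPM in wild type plant 4 and 0 in the other 3 wild type plants. Cluster_3413 at AT1G63320 held 0.0779 and 0.326 CPM in memory, against 9.07 CPM in wild type plant 2 and 0.110 CPM on average in the remaining 3. Of 37 sets of wild type values examined in this way, 2 were past the limit, where chance places about 1 in 20 past it. None of the 8 PPR genes was among them.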

How the results depend on the processing

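None of the 10 clusters passed under any alternative run, and the lowest adjusted p was 0.106 (Cluster_3389 in DESeq2). Of 176 recomputed fold changes 173 kept their direction. The 3 that turned were 0.52 at AT1G62910 without memory plant 1 and, without memory plant 2, -0.087 at the 3′ cluster of AT1G63130 and -0.16 at AT1G63400. With each library left out in turn these clusters ranged from -1.93 to 0.52, from -0.087 to 0.92 and from -0.16 to 1.15. Without memory plant 2, 5 of 10 had an unadjusted p below 0.05, against 5.87% of all clusters. Both memory plants lay below wild type at 2 clusters with TMM or RLE factors and at 3 with ribosomal RNA clusters out of the total, where Cluster_3402 at AT1G63130 no longer separated the groups. They did so at 4 with unscaled totals, a setting under which the median over all clusters was -0.23 in place of -0.03 (log2). Over all clusters, the 1 call became 8 with unscaled library sizes, 2 with at least 10 counts in every library, 245 in DESeq2 and 137 in the likelihood ratio test, and 0 to 9 with a library left out (9 without wild type plant 1, 5 without memory plant 1). In the 4 libraries numbered 1 and 2 it was 0 with the number as a block (537 at an unadjusted p below 0.05) and 0 without it (712). Deviations of same-numbered libraries did not go together (r = -0.067). This is 1 contrast, of libraries 1 and 2 in each group, and it cannot decide whether the numbers pair the plants. The summed wild type level was 2468 CPM with clusters within 1 kb and 3395 CPM with ribosomal RNA clusters out of the total. With 2 memory plants the spread within memory rests on a single difference. The cause of each change was not tested.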

Other observations

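AT1G63070, a PPR gene between the 8, had sRNA in some wild type plants and almost none in others. Its Cluster_3398 held 0 and 0.652 CPM in memory plants 1 and 2, against 20.6, 25.3, 0.261 and 0.264 CPM in wild type plants 1 to 4. The adjacent Cluster_3399 held 1.09 and 1.47 CPM in memory, against 0, 0, 0 and 13.0 CPM in wild type, so the wild type plants with counts at one cluster had next to none at the other.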
